A study of Mus musculus with 15 samples.

Results

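The genes described here are 36 mouse genes of the cell division cycle, taken as a measure of dividing cells in a muscle. They were chosen by symbol, and each symbol was matched through its Ensembl identifier in the GRCm38 annotation to a row of the count table. All 36 were found among its 30672 genes, and all are protein-coding. In 34 of them the counts were high enough to be tested, among 15533 genes tested in all, and *Ccnb1* and *Bub1* fell under the filter on low counts. The 36 genes comprise 2 proliferation markers, 6 regulators of the G1 phase, 9 genes of the replication origin and fork, 4 of nucleotide synthesis, 4 mitotic cyclins with their kinase, and 11 mitotic kinases, checkpoint and spindle genes.

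Messenger RNA of the tibialis anterior, a muscle of the lower leg, was sequenced in 15 mice, all 129Pas males aged 7 weeks. *Mtm1*-/y males carry a constitutive knock-out of the X-linked gene of myotubularin, a phosphoinositide phosphatase, and serve as a model of X-linked myotubular myopathy. Some of the mice received tamoxifen (TAM), a drug that modulates oestrogen receptors. How much was given, by which route and for how long is not stated in the labels or protocols read. The 4 groups were untreated wild type (WT, n = 4), WT with tamoxifen (WT + TAM, n = 4), untreated mutants (*Mtm1*-/y, n = 4) and mutants with tamoxifen (*Mtm1*-/y + TAM, n = 3). The labels give each library as a replicate and name no litter or batch, so p-values measure the spread between these libraries.

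A cell that divides copies its DNA in S phase and separates the copies in mitosis, and cyclins that are made and destroyed in turn switch the cyclin-dependent kinases (CDKs) on at each step. D and E cyclins act in G1 and release E2F factors from the retinoblastoma protein, which turns on the genes of DNA replication, whereas the genes of mitosis are switched on later through CHR elements and CCAAT boxes in their promoters. Muscle fibres of adult mice have left the cell cycle, and divisions in the tissue come from satellite cells, the stem cells of muscle, and from vessel, connective tissue and blood cells.

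The promoters of these genes were searched for elements of both kinds. RefSeq holds a window of 300 bases around the transcription start (250 before, 50 after) on GRCm38.p6 for 29 of the 36 genes, with 32 windows in all. None was given for *Ccnd1*, *Ccnd2*, *Ccne2*, *Mcm4*, *Ccna2*, *Aurkb* and *Tpx2*. On either strand, the CHR element TTTGAA was found in the windows of 13 genes (43.8% of their windows, against 17.9% of all 32851 windows). The CCAAT box CCAAT was found in 23 genes (78.1%, against 37.4%), and both together in 13 (43.8%, against 6.95%). An E2F site, TTTCCCGC or TTTGGCGC, was found in 5 genes (15.6%, against 1.56%), *Cdc6*, *Mcm3*, *Mcm5*, *Mcm6* and *Mcm7*. The windows of both proliferation markers and of 7 of 9 mitotic kinase, checkpoint and spindle genes held a CHR element, whereas all 5 genes with an E2F site belong to the replication group. Each match is a match of letters only.

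The stretches that follow run from 150 bases before to 20 bases after the start, on the strand of the gene. They were picked with the results known, for genes that the results turn on, so no tie between an element and a change is read from them. Capitals mark matches, in either direction, to the CHR element, the CCAAT box and the E2F sites spelled out above, and no match overlaps another in these stretches. The first 4 stretches belong to mitotic genes and proliferation markers with a CHR element, at chr7:135716360-135716529 (minus strand), chr11:99024170-99024339 (minus), chr10:69352893-69353062 (minus) and chr9:70421535-70421704 (minus). The fifth is that of *Kif11* (chr19:37376232-37376401, plus), which holds a CHR element and a CCAAT box and was not called in the mutant. The last 3 belong to replication genes with an E2F site, at chr11:98908001-98908170 (plus), chr8:75109359-75109528 (plus) and chr1:128359686-128359855 (minus). *Mcm3* and *Mcm7* also have an E2F site in their windows, but no whole site within this stretch. They were not called in the mutant and are not shown.
Mki67: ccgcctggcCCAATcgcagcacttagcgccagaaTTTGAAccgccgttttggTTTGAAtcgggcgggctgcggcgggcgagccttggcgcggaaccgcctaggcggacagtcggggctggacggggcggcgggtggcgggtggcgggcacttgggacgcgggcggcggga
Top2a: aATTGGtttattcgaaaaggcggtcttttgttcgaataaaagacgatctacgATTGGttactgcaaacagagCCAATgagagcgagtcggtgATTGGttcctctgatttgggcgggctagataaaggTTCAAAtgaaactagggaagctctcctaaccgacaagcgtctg
Cdk1: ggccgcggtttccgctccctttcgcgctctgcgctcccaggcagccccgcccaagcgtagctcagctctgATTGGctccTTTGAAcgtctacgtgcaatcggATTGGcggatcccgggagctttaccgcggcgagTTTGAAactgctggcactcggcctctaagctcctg
Ccnb2: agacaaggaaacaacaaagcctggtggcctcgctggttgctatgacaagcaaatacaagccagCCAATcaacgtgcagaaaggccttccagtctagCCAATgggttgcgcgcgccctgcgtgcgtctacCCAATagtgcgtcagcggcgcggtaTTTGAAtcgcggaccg
Kif11: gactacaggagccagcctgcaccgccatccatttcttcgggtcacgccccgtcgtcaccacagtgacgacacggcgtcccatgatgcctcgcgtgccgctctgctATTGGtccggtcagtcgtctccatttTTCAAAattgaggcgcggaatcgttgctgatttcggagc
Cdc6: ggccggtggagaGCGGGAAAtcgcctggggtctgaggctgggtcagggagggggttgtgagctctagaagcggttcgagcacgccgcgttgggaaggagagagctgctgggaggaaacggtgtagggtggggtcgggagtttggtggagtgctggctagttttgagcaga
Mcm5: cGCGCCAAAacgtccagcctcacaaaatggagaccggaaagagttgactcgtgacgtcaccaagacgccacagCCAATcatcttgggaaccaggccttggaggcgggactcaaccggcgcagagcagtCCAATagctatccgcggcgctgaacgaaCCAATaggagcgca
Mcm6: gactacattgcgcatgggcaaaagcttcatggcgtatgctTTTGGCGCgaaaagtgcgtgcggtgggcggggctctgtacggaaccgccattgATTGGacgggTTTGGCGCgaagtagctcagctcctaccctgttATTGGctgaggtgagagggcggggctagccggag

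Total counts ranged from 18042558 to 45823277 per library, and a single count corresponded to 0.0224 to 0.053 CPM (counts scaled to library size with TMM factors). *Mtm1* measured 15.3 ± 0.294 CPM in WT, 16.3 ± 1.88 in WT + TAM, 3.36 ± 0.338 in *Mtm1*-/y and 3.49 ± 0.381 in *Mtm1*-/y + TAM libraries (SD, n = 4, 4, 4 and 3), and every mutant library was below every WT library. All 10 markers of skeletal muscle fibres were detected in the libraries, with *Myh4* the highest at 46298 CPM on average. On a principal component analysis of all tested genes, *Mtm1*-/y replicate 1 stood apart from the other libraries on the second component and WT + TAM replicate 1 on the third. Counts of calls without both are given beside the results.

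The 36 genes were low in this tissue. Divided by exon length, the mean level in WT ran from 0.0646 CPM per kb for the mitotic cyclin *Ccnb1* to 4.88 CPM per kb for the kinase gene *Aurka*, followed by the G1 cyclin *Ccnd1* (4.62 CPM per kb) and *Rrm1* (3.68 CPM per kb). The WT group had the highest mean CPM of the 4 groups in 30 of the 36 genes, and *Mtm1*-/y the lowest in 27. Within WT, replicate 4 was the highest of its group in 21 genes and replicate 3 in 11, whereas replicate 1 was the lowest in 20 and replicate 2 in 15. Replicate 2 of WT + TAM (23 genes) and replicate 2 of *Mtm1*-/y + TAM (25 genes) were most often the highest of their groups. *Mtm1*-/y replicate 1 held the lowest value of all 15 libraries in 12 genes and the highest in 4.

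**Figure D1:**
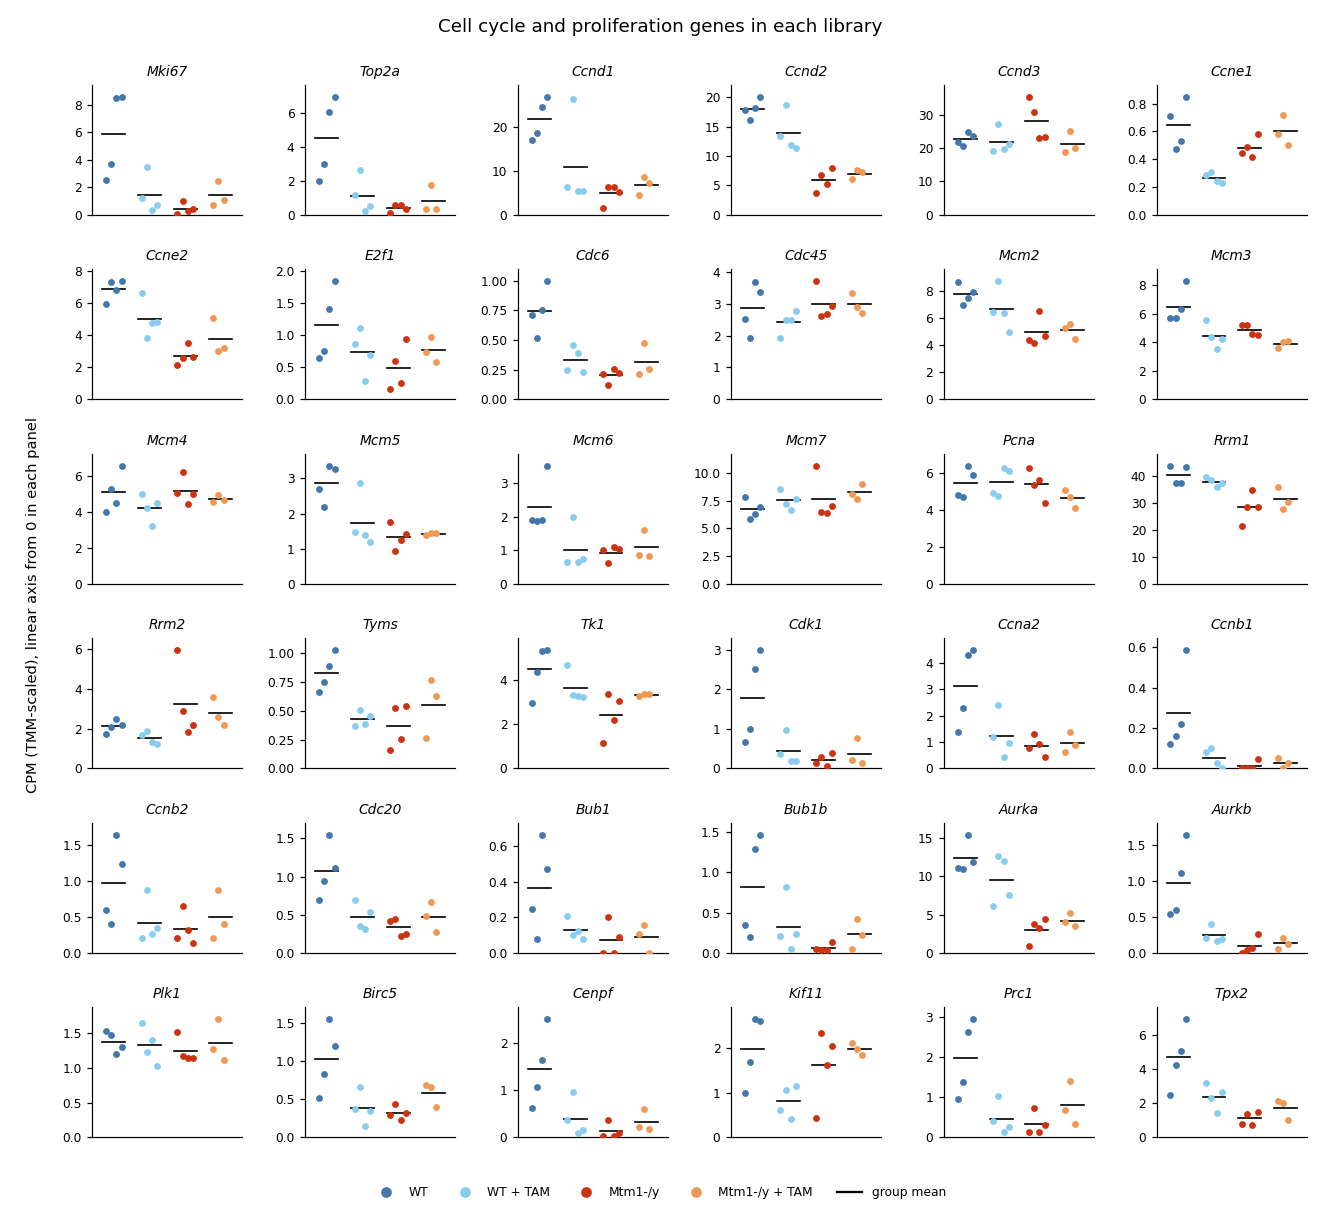
Level of each of the 36 genes in each library, in TMM-scaled CPM on a linear axis from 0, with a panel per gene, a point per library (replicates in order within a group) and a line at the group mean. The WT group has the highest mean in 30 genes and the Mtm1-/y group the lowest in 27, with WT replicates 3 and 4 above replicates 1 and 2 in many panels.

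The comparison of *Mtm1*-/y with WT asks what loss of *Mtm1* does to these genes without the drug. Of the 34 tested genes, 23 were lower in *Mtm1*-/y and 0 were higher (edgeR quasi-likelihood test, Benjamini-Hochberg adjusted p under 0.05 over all tested genes). Among all tested genes 14.9% were called lower and 15.5% higher. In 22 of the 34 genes every *Mtm1*-/y library was below every WT library, as in 15.7% of all tested genes. Over the 34 genes the median log2 fold change was -1.32 (range -3.82 to 0.61), beside 0.000475 for all tested genes. Fewer dividing cells and less of these RNAs per cell cannot be told apart in whole muscle. Without *Mtm1*-/y replicate 1 and WT + TAM replicate 1 together, 22 of the genes were called, all lower.

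The 2 proliferation markers were the most changed group, with a median log2 fold change of -3.71. *Mki67* (ENSMUSG00000031004), which encodes the Ki-67 antigen of cycling cells, measured 2.53, 3.71, 8.50 and 8.60 CPM in WT replicates 1 to 4, and 0.0262, 1.01, 0.286 and 0.426 CPM in *Mtm1*-/y replicates 1 to 4. The groups did not overlap, and WT replicates 3 and 4 were well above replicates 1 and 2. On the log2 scale the difference was -3.82 (SE 0.82, adjusted p 0.00393), a 14.1-fold lower level. *Top2a* (ENSMUSG00000020914), the topoisomerase that untangles replicated chromosomes, measured 1.97, 2.96, 6.06 and 6.95 CPM in WT and 0.0785, 0.565, 0.54 and 0.336 CPM in *Mtm1*-/y. Again the groups did not overlap and the same WT libraries were high, and the level differed by -3.60 on the log2 scale (SE 0.80, adjusted p 0.00465). Without any single WT or *Mtm1*-/y library, *Mki67* stayed between -4.52 and -3.40 and *Top2a* between -3.85 and -3.24 on the log2 scale, called each time. The value of -4.52 was that without *Mtm1*-/y replicate 2. In *Mtm1*-/y replicates 1 to 4, *Mki67* had 1, 25, 9 and 19 counts and *Top2a* 3, 14, 17 and 15 counts. The sizes of both fold changes rested on these few reads.

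Among the G1 regulators, *Ccnd1*, *Ccnd2* and *Ccne2* fell, and *Ccnd3*, *Ccne1* and *E2f1* did not pass the test. *Ccnd1* (ENSMUSG00000070348), a D cyclin that is made on growth factor signals, measured 17.0, 18.6, 24.5 and 26.9 CPM in WT and 1.57, 6.33, 6.32 and 5.2 CPM in *Mtm1*-/y, with no overlap (log2 fold change -2.17, SE 0.54, adjusted p 0.00917). Its relative *Ccnd2* (ENSMUSG00000000184) measured 17.8, 16.0, 18.1 and 20.1 CPM in WT and 3.69, 6.74, 5.24 and 8 CPM in *Mtm1*-/y. The WT values of *Ccnd2* lay close together and the groups were clearly apart, so that this gene had the lowest adjusted p of the 34 (log2 fold change -1.61, SE 0.21, adjusted p 6.98e-05). The cyclin E gene *Ccne2* measured 5.95 to 7.39 CPM in WT and 2.17 to 3.50 CPM in *Mtm1*-/y (-1.34, SE 0.20, adjusted p 0.000279).

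The third D cyclin, *Ccnd3*, differed by 0.31 on the log2 scale (SE 0.15, adjusted p 0.127), with 20.6 to 24.9 CPM in WT and 35.6, 30.8, 23.2 and 23.5 CPM in *Mtm1*-/y. The second E cyclin, *Ccne1*, had 0.474 to 0.851 CPM in WT and 0.413 to 0.582 CPM in *Mtm1*-/y (-0.43, SE 0.26, adjusted p 0.236). Both overlapped between the groups. The transcription factor gene *E2f1* differed by -1.22 on the log2 scale (SE 0.52, adjusted p 0.0846), with 0.64 to 1.85 CPM in WT and 0.157 to 0.941 CPM in *Mtm1*-/y.

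The 9 replication genes had a smaller median, -0.42, and 4 of them fell. *Cdc6*, which loads the replicative helicase at origins, measured 0.713, 0.514, 0.752 and 0.997 CPM in WT and 0.209, 0.121, 0.254 and 0.224 CPM in *Mtm1*-/y (log2 fold change -1.84, SE 0.36, adjusted p 0.00147). Its groups did not overlap, and the counts behind them were 3 to 34 per library. Of the 6 subunits of the MCM helicase, *Mcm6* (-1.29, SE 0.37, adjusted p 0.0155), *Mcm5* (-1.09, SE 0.27, adjusted p 0.00633) and *Mcm2* (-0.65, SE 0.17, adjusted p 0.011) fell. *Mcm3* differed by -0.42 on the log2 scale (SE 0.16, adjusted p 0.0538) with no overlap between groups, *Mcm4* 0.02 and *Mcm7* 0.18. The subunits of a single complex spanned from -1.29 to 0.18 on the log2 scale.

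*Mcm6* measured 1.89, 1.86, 1.90 and 3.52 CPM in WT and 0.994, 0.605, 1.08 and 1.03 CPM in *Mtm1*-/y. WT replicate 4 was far above the other WT libraries, and without it *Mcm6* was not called (-1.01, adjusted p 0.0649). The sliding clamp gene *Pcna*, at 4.70 to 6.42 CPM in WT and 4.41 to 6.30 CPM in *Mtm1*-/y, differed by -0.01 (SE 0.15, adjusted p 0.977). A processed pseudogene, *Pcna-ps2*, had a mean count of 73.8 beside 165 for *Pcna*, and reads of the 2 copies could have been split. *Cdc45*, a partner of the MCM helicase, differed by 0.06 on the log2 scale (SE 0.20, adjusted p 0.847).

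In nucleotide synthesis, 3 of 4 genes fell. *Rrm1*, the large subunit of ribonucleotide reductase, measured 43.9, 37.3, 37.4 and 43.4 CPM in WT and 21.3, 28.7, 35.0 and 28.5 CPM in *Mtm1*-/y, with no overlap (log2 fold change -0.52, SE 0.13, adjusted p 0.00673). *Rrm2*, the small subunit, had 1.72, 2.09, 2.48 and 2.2 CPM in WT and 5.94, 2.90, 1.84 and 2.19 CPM in *Mtm1*-/y. Only *Mtm1*-/y replicates 1 and 2 were above the WT range, and the gene did not pass the test (0.61, SE 0.31, adjusted p 0.151).

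The thymidylate synthase gene *Tyms* (-1.17, SE 0.38, adjusted p 0.0284) and the thymidine kinase gene *Tk1* (-0.89, SE 0.27, adjusted p 0.0227) were called, the second with overlapping groups. The *Tyms* call was lost without WT replicate 3 (-1.14, adjusted p 0.0566), WT replicate 4 (-1.05, adjusted p 0.0796), *Mtm1*-/y replicate 1 (-0.91, adjusted p 0.0663) or *Mtm1*-/y replicate 3 (-1.02, adjusted p 0.0742). The *Tk1* call was lost without WT replicate 3 (-0.80, adjusted p 0.0614), WT replicate 4 (-0.79, adjusted p 0.0674) or *Mtm1*-/y replicate 3 (-0.82, adjusted p 0.0567).

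All 3 tested mitotic cyclin and kinase genes fell, with a median of -1.90. *Cdk1* (ENSMUSG00000019942), the kinase that drives entry into mitosis, measured 0.664, 0.988, 2.52 and 2.99 CPM in WT and 0.131, 0.282, 0.0636 and 0.381 CPM in *Mtm1*-/y. The groups did not overlap, and the WT libraries split as for *Mki67*, with replicates 3 and 4 high (-3.01, SE 0.70, adjusted p 0.00529). *Cdk1* had 5, 7, 2 and 17 counts in *Mtm1*-/y, so its fold change rested on few reads. Its cyclin *Ccna2* measured 1.38, 2.29, 4.29 and 4.49 CPM in WT and 0.759, 1.29, 0.922 and 0.426 CPM in *Mtm1*-/y (-1.90, SE 0.49, adjusted p 0.00973).

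*Ccnb2*, a B cyclin, was called with overlapping groups and an adjusted p close to the threshold (-1.62, SE 0.59, adjusted p 0.049). It was not called without WT replicate 3 (-1.26, adjusted p 0.147), WT replicate 4 (-1.46, adjusted p 0.116) or *Mtm1*-/y replicate 1, 3 or 4 (-1.46, -1.61 and -1.33, adjusted p 0.103, 0.0848 and 0.124). The other B cyclin, *Ccnb1*, had 5, 4, 5 and 20 counts in the WT libraries and 0, 0, 0 and 2 counts in *Mtm1*-/y. Its difference in mean CPM had an exact permutation p of 0.0286, the smallest that 4 against 4 libraries allow, and of 0.114 when adjusted over the 8 such tests of *Ccnb1* and *Bub1*.

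Of the 10 tested mitotic kinase, checkpoint and spindle genes, 8 fell and the median was -2.05. *Aurka*, the kinase of spindle poles, measured 11.1, 11, 15.4 and 11.9 CPM in WT and 0.837, 3.71, 3.21 and 4.37 CPM in *Mtm1*-/y. Its groups were far apart, and *Mtm1*-/y replicate 1 was the lowest library (log2 fold change -2.03, SE 0.37, adjusted p 0.0013). *Aurkb*, the kinase of the chromosomal passenger complex, measured 0.541, 0.593, 1.11 and 1.64 CPM in WT and 0, 0.0403, 0.0636 and 0.269 CPM in *Mtm1*-/y (-3.19, SE 0.65, adjusted p 0.00201). Its value was -4.75 without *Mtm1*-/y replicate 4, the highest of that group (adjusted p 0.000452). It was called without any single library, at -4.75 to -2.76. *Aurkb* had 22, 15, 25 and 56 counts in WT and 0, 1, 2 and 12 counts in *Mtm1*-/y, so its fold change rested on few reads. *Birc5*, the survivin subunit of the same complex, fell less (-1.68, SE 0.42, adjusted p 0.00801).

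The kinetochore gene *Cenpf* (-3.63, SE 0.80, adjusted p 0.00363) and the spindle checkpoint gene *Bub1b* (-3.47, SE 0.86, adjusted p 0.00724) also fell. *Cenpf* was at -4.70 without *Mtm1*-/y replicate 2, and *Bub1b* at -4.15 without replicate 4. Over all single libraries left out they ran from -4.70 to -3.22 and from -4.15 to -3.00, called each time. *Bub1b* had 14, 5, 29 and 50 counts in the WT libraries and 2, 1, 1 and 6 counts in *Mtm1*-/y, so its fold change rested on few reads. The same holds for *Cenpf*, with 25, 27, 37 and 85 counts in WT and 1, 9, 1 and 4 counts in *Mtm1*-/y. *Prc1*, a crosslinker of spindle microtubules (-2.65, SE 0.65, adjusted p 0.007), *Tpx2*, the activator of Aurora A (-2.07, SE 0.35, adjusted p 0.000597), and *Cdc20*, which triggers the exit from mitosis (-1.68, SE 0.37, adjusted p 0.00373), also fell, each without overlap. *Prc1* was at -3.30 without *Mtm1*-/y replicate 2.

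*Plk1*, a kinase of mitotic entry, measured 1.53, 1.46, 1.19 and 1.29 CPM in WT and 1.52, 1.17, 1.14 and 1.14 CPM in *Mtm1*-/y (-0.14, SE 0.21, adjusted p 0.649). The kinesin gene *Kif11* had 1.01, 1.70, 2.66 and 2.61 CPM in WT and 0.445, 2.34, 1.62 and 2.06 CPM in *Mtm1*-/y (-0.30, SE 0.43, adjusted p 0.628). Both overlapped. For *Bub1*, with 10, 2, 15 and 16 counts in WT and 0, 5, 0 and 4 counts in *Mtm1*-/y, the exact permutation p was 0.0857 (0.229 adjusted over the 8 tests).

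**Figure D2:**
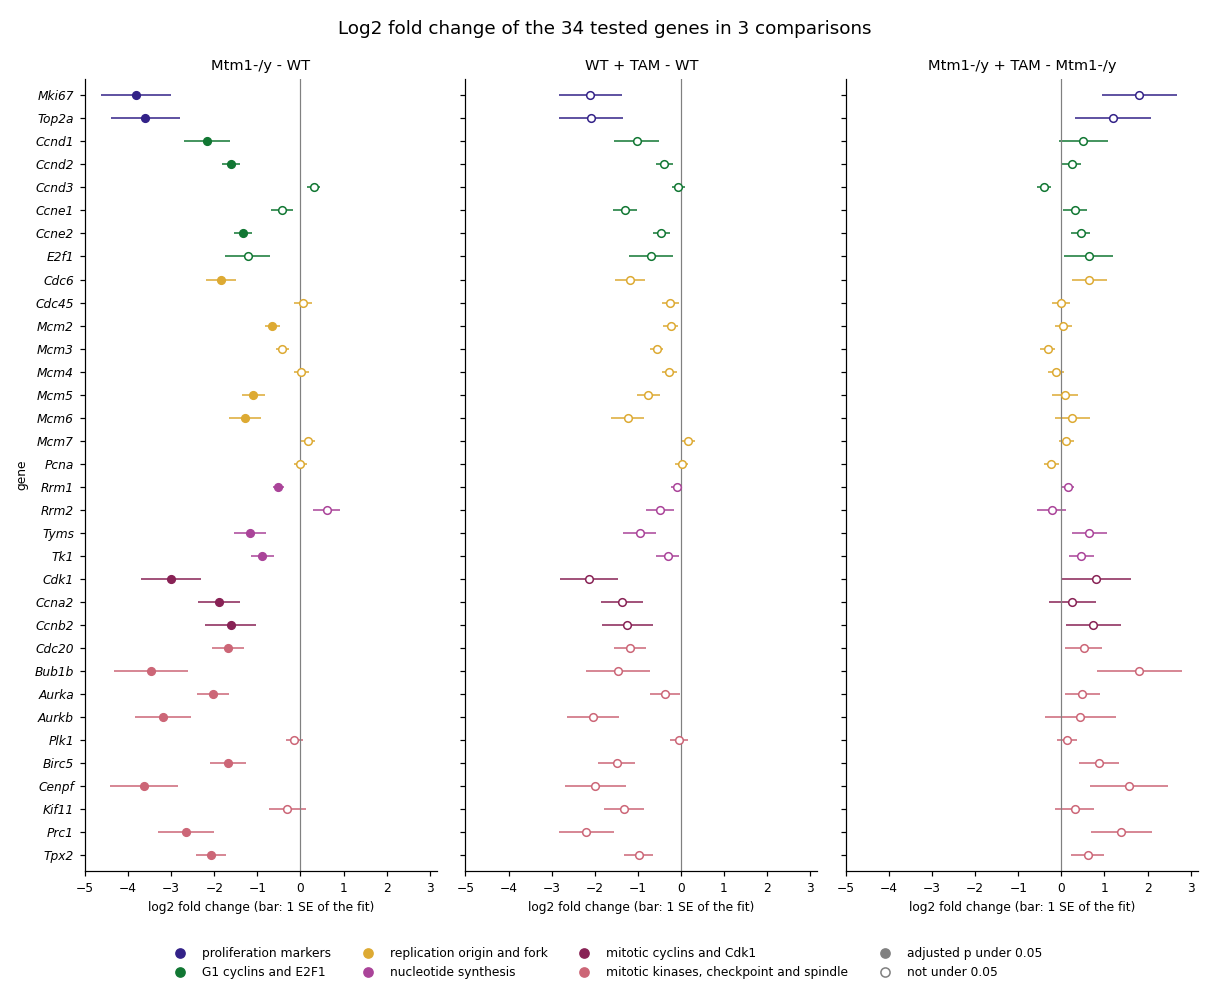
Log2 fold change of the 34 tested genes with 1 standard error of the fit on either side, in Mtm1-/y against WT, WT + TAM against WT and Mtm1-/y + TAM against Mtm1-/y, coloured by role. Filled points have an adjusted p under 0.05, which holds for 23 genes in the first panel, all lower, and for 0 in the other panels.

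Summed over genes, the difference was larger in the mitotic groups than in the S-phase groups. The 17 proliferation marker and mitotic genes summed to 27.3, 34, 58 and 58.9 CPM in WT and to 5.73, 14.6, 9.53 and 12.3 CPM in *Mtm1*-/y. *Aurka* took a large share of that sum, and without it the sums were 16.2, 23.0, 42.5 and 47.0 CPM in WT and 4.89, 10.9, 6.32 and 7.91 CPM in *Mtm1*-/y. The 13 replication and nucleotide genes summed to 79.5 to 98.9 CPM in WT and to 65.5 to 72.1 CPM in *Mtm1*-/y. Neither sum overlapped between the groups. *Rrm1* held a large share of the S-phase sum, at 37.3 to 43.9 CPM in WT and 21.3 to 35.0 CPM in *Mtm1*-/y. The 9 replication genes alone summed to 34.9 to 46.8 CPM in WT and 31.2 to 38.3 CPM in *Mtm1*-/y, and there the groups overlapped. Within WT, the mitotic sum of replicates 3 and 4 was well above that of replicates 1 and 2. The S-phase sum did not show that gap. The replication genes alone summed to 38.9, 34.9, 40.7 and 46.8 CPM in WT replicates 1 to 4.

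**Figure D3:**
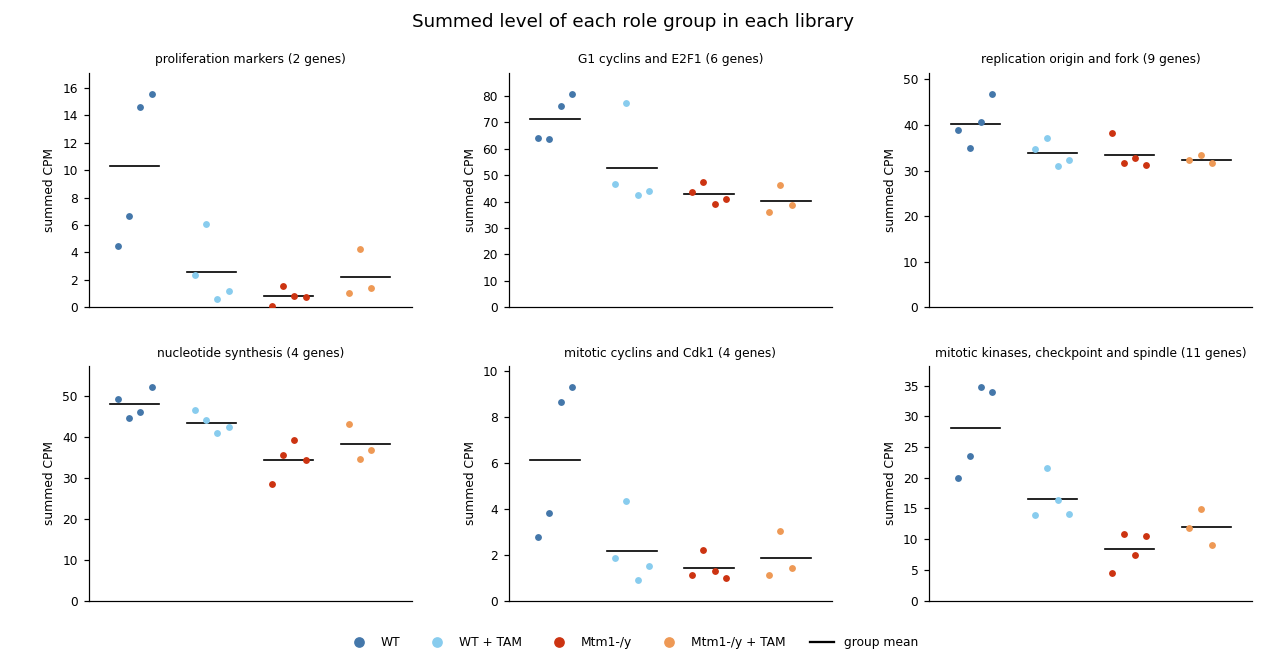
Summed CPM of each role group in each library, with a panel per role, a point per library, a line at the group mean and an axis from 0. In the proliferation marker and both mitotic panels WT replicates 3 and 4 lie above replicates 1 and 2, and replicate 2 is the highest library of WT + TAM and of Mtm1-/y + TAM.

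Set beside the promoter elements, the 13 tested genes with a CHR element had a median log2 fold change of -2.03 (range -3.82 to 0.06) and 10 of them were called, all lower. The 14 tested genes with a window but no CHR element had a median of -0.70 (range -1.84 to 0.61), and 7 were called, all lower. Among the 5 genes with an E2F site 3 were called lower, with a median of -1.09. *Cdc45*, *Plk1* and *Kif11* held a CHR element and were not called, whereas *Birc5*, with none of the 3 elements in its window, fell by 1.68 on the log2 scale. These are descriptions of 27 genes that share the elements with their roles, and no test was made.

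**Figure D4:**
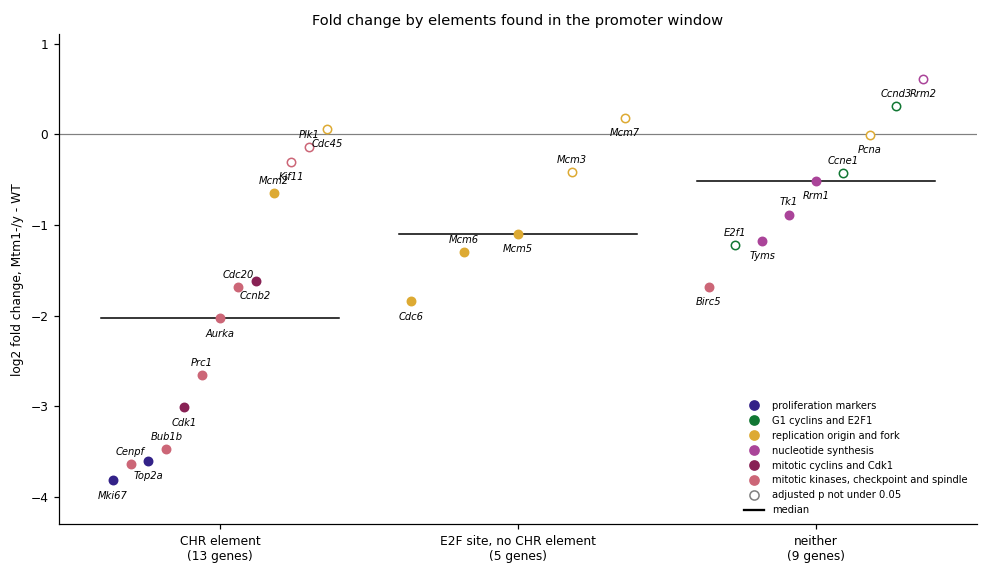
Log2 fold change of Mtm1-/y against WT for the 27 tested genes with a promoter window, by the element found in it, with a point per gene coloured by role, open where the adjusted p was not under 0.05, and a line at the median. The CHR class spans from -3.82 to 0.06 with a median of -2.03, and the classes overlap.

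The other cell cycle genes give the wider pathway. Of 26 tested G2 and M genes outside the 36, 18 fell and 0 rose in *Mtm1*-/y, with a median log2 fold change of -1.56, among them *Pbk* (-4.04, SE 0.70, adjusted p 0.000671), *Aspm* (-2.72) and *Nuf2* (-2.65). Of 25 other S-phase genes 9 fell and 0 rose (median -0.33), led by *Clspn* (-2.21), *Uhrf1* (-1.86) and *Chek1* (-1.34). *Pbk* was at 0.435 to 1.61 CPM in WT and 0 to 0.121 CPM in *Mtm1*-/y. *Clspn* was at 0.32 to 0.733 CPM in WT and 0.0403 to 0.157 CPM in *Mtm1*-/y. The fold changes of both rested on few reads. Among 19 pocket protein, E2F and DREAM genes, 4 fell and 4 rose, where 14.9% of all tested genes were called lower and 15.5% higher. *Foxm1*, the factor that drives many mitotic genes, fell by 1.36 on the log2 scale (SE 0.35, adjusted p 0.00907) *E2f7* fell by 1.09 and *E2f6* fell by 0.68. *Tfdp2* was called higher (1.18, SE 0.40, adjusted p 0.0424), with 47.9 to 59.8 CPM in WT and 56.4 to 274 CPM in *Mtm1*-/y. Without *Mtm1*-/y replicate 1 it was at 0.42 (adjusted p 0.132), and it was not called without any one of the WT libraries either (adjusted p 0.074 to 0.0928). *Rb1*, the retinoblastoma gene, rose by 0.91 (SE 0.20, adjusted p 0.00395). *E2f8* rose by 2.77 (SE 0.41, adjusted p 0.000213), from 0.133 to 0.323 CPM in WT to 0.922 to 2.35 CPM in *Mtm1*-/y. Calls were lost for *E2f7* without WT replicate 2, 3 or 4 or *Mtm1*-/y replicate 2 or 3 (adjusted p 0.0514 to 0.112) and for *Chek1* without WT replicate 4 or *Mtm1*-/y replicate 2 or 3 (0.0512 to 0.109). That of *Nuf2* was lost without WT replicate 3 or 4 or *Mtm1*-/y replicate 1 or 3 (adjusted p 0.0501 to 0.0815), and without *Mtm1*-/y replicate 2 its value was -3.24.

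CDK inhibitors stop the kinases that the cyclins activate. Of 6 tested, 2 rose and 0 fell, beside 15.5% of all tested genes called higher and 14.9% called lower. *Cdkn1a*, which encodes p21, measured 18.7 to 57.4 CPM in WT and 245 to 392 CPM in *Mtm1*-/y, which differed by 3.15 on the log2 scale (SE 0.45, adjusted p 0.000302), and *Cdkn2d* rose by 0.32 (SE 0.11, adjusted p 0.0471). Among 10 tested CDK and related genes outside the 36, *Cdk6* (0.66) and *Ccng2* (0.42) rose, and *Ccng1* fell by 0.78 on the log2 scale. The call of *Cdkn2d* held without *Mtm1*-/y replicate 3 only (adjusted p 0.0555 to 0.121 without another library). *Ccng2* was not called without WT replicate 1, 2 or 3 or *Mtm1*-/y replicate 1 or 4 (0.0534 to 0.125), nor *Cdk6* without WT replicate 1, 2 or 3 or *Mtm1*-/y replicate 2 or 4 (0.0598 to 0.0916).

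Markers of some other cell types moved with this comparison, in which 14.9% of all tested genes were called lower and 15.5% higher. Of 7 endothelial markers 6 fell (median -0.73), with sums of 493 to 637 CPM in WT and 272 to 382 CPM in *Mtm1*-/y. Of 10 satellite cell and myoblast markers 4 fell and 4 rose. *Pax7*, the defining gene of satellite cells, measured 5.31 to 7.39 CPM in WT and 0.887 to 1.40 CPM in *Mtm1*-/y (-2.44, SE 0.22, adjusted p 3.63e-06). *Calcr* fell by 4.09 (-5.04 without *Mtm1*-/y replicate 3). It had 21 to 42 counts per library in WT and 0 to 5 in *Mtm1*-/y, so its fold change rested on few reads. *Myod1* (1.00) and *Des* (1.07) rose. *Pax7*, *Calcr* and *Myod1* are named here after their values were seen. *Des*, which fibres also express, held 98.4% of that sum, which was 2955 to 3389 CPM in WT and 5249 to 7308 CPM in *Mtm1*-/y.

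The lymphocyte sum was 54.3 to 73.0 CPM in WT and 0.889 to 5.42 CPM in *Mtm1*-/y, and 92.5% of it was *Ighm* (-5.02, SE 0.66, adjusted p 0.000192, and -5.79 without *Mtm1*-/y replicate 4). The lymphocyte genes *Cd79a*, *Cd3e* and *Ms4a1* were at 0 to 9 counts in every library of these groups. Among the remaining lists, 1 of 10 macrophage markers rose, 1 of 8 fibroblast markers rose and 1 fell, 2 of 6 Schwann cell markers rose, 2 of 10 muscle fibre markers fell, and 0 of 5 erythroid and 0 of 6 adipocyte markers were called. For these last 2 lists, 0 genes also had an unadjusted p under 0.05. With 14.9% of all tested genes called lower and 15.5% higher, nothing is read from the small counts of these remaining lists. The part of these cell types in the lower cell cycle genes was not tested.

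**Figure D5:**
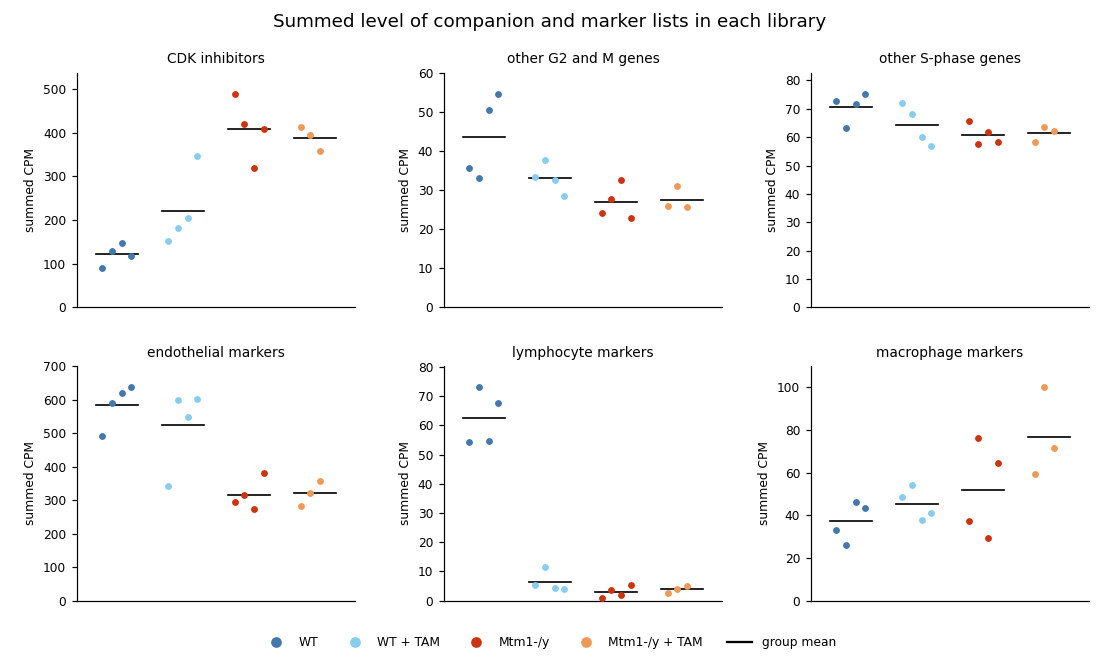
Summed CPM per library of the CDK inhibitors, the other G2 and M genes, the other S-phase genes and the endothelial, lymphocyte and macrophage markers, with a point per library, a line at the group mean and an axis from 0. CDK inhibitors sum to 90.4 to 148 CPM in WT and 319 to 489 CPM in Mtm1-/y, and the lymphocyte sum is 54.3 to 73.0 CPM in WT and at most 11.4 CPM in the other groups.

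The comparison of WT + TAM with WT asks what the drug does in healthy muscle, and it shares the WT libraries with the comparison above. In it 0 of the 34 genes were called by edgeR, beside 0.309% of all tested genes, and limma-voom also called 0. DESeq2 called *Prc1* alone, as lower. At an unadjusted p under 0.05, 18 of the 34 were lower and 0 higher, where 5.28% of all tested genes were lower. The median log2 fold change was -0.97 (range -2.19 to 0.16), beside 0.0024 for all tested genes.

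In 5 genes (*Ccne1*, *Cdc6*, *Mcm3*, *Tyms* and *Aurkb*) every treated library was below every WT library, as in 3.86% of all tested genes. *Ccne1* came closest to a call, with 0.713, 0.474, 0.531 and 0.851 CPM in WT and 0.286, 0.306, 0.241 and 0.229 CPM in WT + TAM (log2 fold change -1.30, SE 0.29, adjusted p 0.0815). Its counts were 6 to 29 per library in these groups. *Mcm3* measured 5.68 to 8.27 CPM in WT and 5.52, 4.33, 3.52 and 4.23 CPM in WT + TAM (-0.56, SE 0.16, adjusted p 0.166), and it was the one gene called when both libraries that stood apart were left out.

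Replicate 2 of WT + TAM lay within the WT range in each of the next genes. *Mki67* measured 1.19, 3.47, 0.362 and 0.686 CPM in WT + TAM replicates 1 to 4, against 2.53 to 8.60 CPM in WT (-2.10, SE 0.74, adjusted p 0.288). *Ccnd1* measured 6.21, 26.2, 5.48 and 5.49 CPM, so that replicate 2 was at the upper end of WT and the other treated libraries were at the level of *Mtm1*-/y (-1.02, SE 0.52, adjusted p 0.487). *Mcm6* had the same pattern with 0.654, 1.99, 0.651 and 0.725 CPM (-1.24, SE 0.38, adjusted p 0.208), and without replicate 2 it was the one gene called.

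*Cdk1* in WT + TAM was at 0.368, 0.969, 0.193 and 0.191 CPM (-2.14, SE 0.68, adjusted p 0.232) and *Prc1* at 0.409, 1.02, 0.145 and 0.267 CPM (-2.19, SE 0.64, adjusted p 0.2). In both, replicate 2 alone reached the WT range. *Aurka*, the most abundant of the mitotic genes, measured 6.09, 12.6, 12 and 7.51 CPM and differed by -0.37 on the log2 scale (SE 0.35, adjusted p 0.748). *Ccnd2*, at 13.4, 18.7, 11.9 and 11.4 CPM, had -0.38 (SE 0.20, adjusted p 0.489). *Pcna* (0.02), *Plk1* (-0.05) and *Ccnd3* (-0.06) lay near 0.

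For the genes under the count filter, *Ccnb1* had 2, 2, 1 and 0 counts in WT + TAM, with an exact permutation p of 0.0286 against WT (0.114 adjusted over the 8 tests), and *Bub1* had 5, 2, 5 and 2 counts (exact p 0.114, adjusted 0.229). The mitotic and proliferation marker sum was 18.1, 32, 17.8 and 16.8 CPM in WT + TAM, and only replicate 2 lay within the WT range of 27.3 to 58.9 CPM. The S-phase sum was 71.8 to 81.4 CPM and overlapped with WT. Of the companion lists, 0 of 26 other G2 and M genes were called, but 19 were lower and 1 higher at an unadjusted p under 0.05. *Cdkn1a* measured 58.2 to 266 CPM in WT + TAM, beside 18.7 to 57.4 CPM in WT, and was not called.

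Of the 9 marker lists, 1 gene was called in WT + TAM, *Ighm* in the lymphocyte list (-3.77, SE 0.62, adjusted p 0.0296). It was not called without any one of the WT libraries or without WT + TAM replicate 3 or 4 (-3.83 to -3.54, adjusted p 0.0638 to 0.0921). The lymphocyte sum was 3.93 to 11.4 CPM in WT + TAM. Endothelial markers summed to 343 to 603 CPM, and *Pax7* was at 4.29 to 8.47 CPM (0.05, SE 0.20, adjusted p 0.953). The part of *Ighm*-expressing cells in the levels of the cell cycle genes was not tested.

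Treated mutants were then set against untreated mutants, to ask what the drug does in the mutant. In it 0 of the 34 genes were called by edgeR, by DESeq2 or by limma-voom, beside 0.0129% of all tested genes by edgeR. At an unadjusted p under 0.05, *Ccnd3* was lower (-0.40, SE 0.16, p 0.025, adjusted p 0.855) and 0 genes were higher, although 28 of the 34 had a log2 fold change above 0. The median was 0.45 (range -0.40 to 1.81), beside -0.0031 for all tested genes. Without *Mtm1*-/y + TAM replicate 2 the median was 0.16.

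*Mki67* measured 0.689, 2.46 and 1.06 CPM in *Mtm1*-/y + TAM replicates 1 to 3 and 0.0262 to 1.01 CPM in *Mtm1*-/y (1.81, SE 0.87, adjusted p 0.855). The groups overlapped, and all 3 treated libraries were below the lowest WT library (2.53 CPM), replicate 2 just under it. *Top2a* measured 0.318, 1.77 and 0.327 CPM (1.20, SE 0.88, adjusted p 0.877), *Bub1b* 0.053, 0.424 and 0.227 CPM (1.81, SE 0.99, adjusted p 0.855) and *Prc1* 0.689, 1.40 and 0.327 CPM (1.39, SE 0.71, adjusted p 0.855). Replicate 2 was the highest library in each. *Cdk1* (0.80, SE 0.81) and *Ccna2* (0.25, SE 0.55) were also within their spread.

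*Ccnd1* measured 4.56, 8.63 and 7.15 CPM in *Mtm1*-/y + TAM (0.51, SE 0.57, adjusted p 0.904) and *Ccnd2* 6.04, 7.68 and 7.20 CPM (0.24, SE 0.22, adjusted p 0.884). *Mcm3* measured 3.55, 4.02 and 4.05 CPM, beside 4.48 to 5.23 CPM in *Mtm1*-/y, and was not called (-0.32, SE 0.17, adjusted p 0.855). *Ccnb1* had 1, 0 and 1 counts and *Bub1* 2, 6 and 0 counts in the treated libraries (exact permutation p 0.543 and 0.914). The mitotic and proliferation marker sum was 13.9, 22.2 and 11.8 CPM in *Mtm1*-/y + TAM, against 5.73 to 14.6 CPM in *Mtm1*-/y. *Cdkn1a* stayed at 277 to 333 CPM, and the macrophage sum was 59.2 to 100 CPM beside 29.5 to 76.3 CPM in *Mtm1*-/y. Of 10 macrophage markers 0 were called, and 3 were higher at an unadjusted p under 0.05. The share of all tested genes higher at that threshold is not reported here, so nothing is read from this count.

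Treated mutants were also set against treated WT mice, to ask what loss of *Mtm1* does under the drug. Of the 34 genes, 2 were called, *Ccnd2* lower and *Ccne1* higher, where 20.1% of all tested genes were called. The median log2 fold change was -0.05 (range -1.18 to 1.33), beside -0.017 for all tested genes. *Ccnd2* measured 13.4, 18.7, 11.9 and 11.4 CPM in WT + TAM and 6.04, 7.68 and 7.20 CPM in *Mtm1*-/y + TAM, with no overlap (-0.98, SE 0.22, adjusted p 0.0069). *Ccne1* measured 0.286, 0.306, 0.241 and 0.229 CPM in WT + TAM and 0.583, 0.715 and 0.503 CPM in *Mtm1*-/y + TAM, with no overlap (1.18, SE 0.31, adjusted p 0.014). Without *Mtm1*-/y + TAM replicate 2, *Ccne1* was not called (1.02, adjusted p 0.0805).

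*Aurka* measured 4.03, 5.19 and 3.45 CPM in *Mtm1*-/y + TAM, all below the 6.09 to 12.6 CPM of WT + TAM (-1.18, SE 0.40, adjusted p 0.0532). The treated mutant libraries were all above the treated WT ones for *Kif11* (1.33, SE 0.48, adjusted p 0.0649) and *Rrm2* (0.87, SE 0.34, adjusted p 0.0851). *Aurka* was called without WT + TAM replicate 1. Without that library and *Mtm1*-/y replicate 1 together, 5 genes were called, *Aurka*, *Ccnd2*, *Ccne1*, *Kif11* and *Rrm2*. *Mki67* differed by 0.09 on the log2 scale (SE 0.81) and *Cdk1* of -0.07 (SE 0.80). For *Ccnb1* and *Bub1* the exact permutation p was 0.457 and 0.486. Among the companion genes, *Rb1* (0.76), *E2f8* (2.22), *Gins1* (0.77), *Cks1b* (1.12), *Cdk4* (0.35) and *Cdk6* (0.71) were called higher in the treated mutants, and *Tfdp1* (-0.57), *E2f6* (-0.54), *Ube2c* (-1.17) and *Ccng1* (-0.56) lower. Of these, *Tfdp1* and *E2f8* were called without any single library. The call of *Rb1* was lost when *Mtm1*-/y + TAM replicate 1 was left out (adjusted p 0.0967), that of *Ube2c* with replicate 2 of that group left out (0.0544) and that of *Cks1b* with replicate 2 or 3 (0.0502 and 0.053). The calls of *Cdk4*, *Cdk6*, *Gins1*, *E2f6* and *Ccng1* were lost without any 1 of 4 or more of the 7 treated libraries, WT + TAM replicate 4 and *Mtm1*-/y + TAM replicates 1 to 3 among them (adjusted p 0.0508 to 0.206). In this comparison 0 of 6 CDK inhibitors were called and 2 had an unadjusted p under 0.05, a threshold for which the share of all tested genes is not reported here.

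The interaction asks whether the drug acted differently in the genotypes. By edgeR 0 of the 34 genes were called and 0 of all tested genes (0.0%), as by limma-voom, whereas DESeq2 called 72 genes, among them *Prc1* as the one gene of the 34. At an unadjusted p under 0.05 the interaction was positive in 19 of the 34 genes and negative in 0, where 4.69% of all tested genes were positive and 1650 of 15533 passed in either direction. The median was 1.51 (range -0.34 to 3.91), beside -0.0068 for all tested genes. The interaction rests on the WT libraries as well as on the treated ones, so it is no further evidence beside the comparisons above.

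The interactions with the lowest p-values were those of *Ccne1* (1.61, SE 0.41, p 0.00116), *Prc1* (3.58, SE 0.95, p 0.00195) and *Birc5* (2.36, SE 0.64, p 0.002), each with an adjusted p of 0.308. The largest in size was that of *Mki67*, at 3.91 (SE 1.14, adjusted p 0.357), and *Cdc6* had 1.82 (SE 0.54, adjusted p 0.357). *Mcm7* (-0.05), *Mcm4* (0.14) and *Plk1* (0.18) lay near 0.

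For tamoxifen averaged over both genotypes, 0 of the 34 genes were called, beside 0.206% of all tested genes, and DESeq2 and limma-voom also called 0. The median was -0.22 (range -0.80 to 0.17), beside -0.0052 for all tested genes. At an unadjusted p under 0.05, *Mcm3* (-0.44, SE 0.12, p 0.00176, adjusted p 0.251) and *Ccne1* (-0.49, SE 0.20, p 0.0283, adjusted p 0.658) were lower.

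Of the 36 genes, 12 share exonic bases with another annotated gene, 11 of them with a gene on the opposite strand. The longest overlaps are 1100 bases of *Ccnd1* with *LTO1*, 911 of *Prc1* with *Rccd1*, 609 of *Ccne2* with *Ints8* and 510 of *Ccna2* with *Exosc9*. The library kit marks strand, but how strand was handled in counting is not stated in the labels or protocols read. Values of these genes are uncertain to that extent.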

How the data were processed

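Polyadenylated RNA of 15 tibialis anterior muscles was sequenced by the authors with a kit that marks strand. Tools named in the submitters' processing notes are STAR 2.5.3a, HTSeq 0.6.1p1, Bowtie2 2.2.8 and cutadapt 1.10, with GRCm38 and mm10 as builds. The deposited values are raw counts per gene, made by the authors. Sources used here do not state the annotation release or the strand setting. Gene symbols and exon lengths were taken from GENCODE M21, and all 30672 identifiers matched.

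Groups were taken from the labels. Genes were filtered with filterByExpr (minimum count 10), counts were scaled by TMM factors, and 1 edgeR 4.0.16 quasi-likelihood model (R 4.3.3) was fitted to all 15 libraries, with 11 residual degrees of freedom and no covariate. P-values were adjusted by Benjamini-Hochberg over the 15533 tested genes, with a threshold of 0.05. CPM were computed with the same factors. DESeq2 1.42.0 and limma-voom (limma 3.58.1) were alternatives, beside other scalings, filters, subsets of libraries and a replicate block. The scripts were tested on simulated data.

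All 36 genes entered the counts of each comparison. Values are given for all of them between the untreated genotypes, and for a part of them, chosen after their values were seen, in the other comparisons. Of each companion list, up to 3 called genes with the highest and up to 3 with the lowest log2 fold change are named, and of each marker list its counts, its sum and its most abundant gene. The genes and lists were chosen with earlier results of these data known. Some genes of these lists are not reported here.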

Additional observations from a re-analysis of the deposited data

Results flagged for a closer look

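In 8 of 108 groups of 4 libraries tested (Dixon's test over the 36 genes in 3 groups), 1 library lay far from the others, where chance gives about 1 in 20, or 5.4. WT + TAM replicate 2 was high for *Ccnd1* (26.2 CPM, others 5.48 to 6.21), *Mcm6* (1.99 CPM, others 0.651 to 0.725) and *Aurkb* (0.408 CPM, others 0.169 to 0.204). WT + TAM replicate 1 was high for *Tk1* (4.70 CPM, others 3.24 to 3.31). WT replicate 4 was high for *Mcm6* (3.52 CPM, others 1.86 to 1.90). *Mtm1*-/y replicate 1 was high for *Mcm7* (10.7 CPM, others 6.39 to 7.03) and *Plk1* (1.52 CPM, others 1.14 to 1.17). *Mtm1*-/y replicate 4 had 0.0448 CPM of *Ccnb1*, from 2 counts, where the others had 0.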

How the results depend on the processing

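No called gene changed direction under an alternative, whereas the median of the treated mutants against treated WT mice (-0.05) took either sign. Of the 36 genes, those lower in *Mtm1*-/y than in WT numbered 23, and 20 to 24 under the other tools, scalings, the lenient filter, the replicate block and a log2 fold change over 1. With at least 50 counts in 3 libraries, 14 were called because fewer genes were tested, and the median was -0.89 (-0.45 for WT + TAM against WT, 0.77 for the interaction). For *Mtm1*-/y + TAM against WT + TAM (2 called), 1 was called with a log2 fold change over 1, 1 without a filter (*Ccne1* lost, adjusted p 0.0636), 4 by DESeq2, 5 with only the groups compared and 5 without *Mtm1*-/y replicate 1 and WT + TAM replicate 1. For WT + TAM against WT, DESeq2 called 1 and the fit without those libraries 1. For the interaction DESeq2 called 1. *Ccnb2* was lost in 9 of 16 alternatives, 5 of them with 1 library left out. The others included RLE factors (adjusted p 0.0503), no filter (0.0627) and only the groups compared (0.0545). *Tyms* was lost in 5 of 16, 4 of them with 1 library left out. *Tk1* was also lost with only the groups compared (0.0649).

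Over all tested genes, a log2 fold change over 1 left 1536 of 4727 between the untreated genotypes, 934 of 3121 between the treated genotypes and 18 of 32 for the average effect of tamoxifen. DESeq2 called 295 for WT + TAM against WT (48 by edgeR), 4 for *Mtm1*-/y + TAM against *Mtm1*-/y (2), 72 for the interaction (0) and 115 for the average (32). Without *Mtm1*-/y replicate 1 and WT + TAM replicate 1 these were 347, 7, 14 and 128. Without a filter 1 was called for *Mtm1*-/y + TAM against *Mtm1*-/y and 2 for the interaction, and with only the groups compared 1 for the former. The cause was not tested.

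Leaving out 1 library at a time gave 3693 to 4736 genes between the untreated genotypes, 11 to 111 for WT + TAM against WT, 0 to 2 for *Mtm1*-/y + TAM against *Mtm1*-/y, 1656 to 3339 between the treated genotypes, 0 to 7 for the interaction and 10 to 71 for the average. Of the 36 genes, it gave 19 to 23, 0 to 1, 0 to 0, 1 to 3, 0 to 0 and 0 to 0 in the same order. Medians ranged from -1.42 to -1.17, -1.09 to -0.77, 0.16 to 0.50, -0.27 to 0.20, 1.18 to 1.59 and -0.34 to -0.14.

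Whether replicate numbers pair the samples could not be decided from the libraries. Same-numbered libraries had correlations of -0.113 to 0.306, over 0.1 in 6 of 21 pairs. Libraries with different numbers had correlations of -0.338 to 0.214, over 0.1 in 10 of 63 pairs. Of the 15 libraries, 5 correlated best with their own number. With the replicate block 24 genes were called for *Mtm1*-/y against WT and 3 for *Mtm1*-/y + TAM against WT + TAM, *Kif11* added. Depth limits the genes with few reads, such as *Bub1b* with at most 6 counts in any *Mtm1*-/y library. Leaving out single libraries for the companion and marker genes was chosen after seeing the data.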
